A study of Gallus gallus with 12 samples.

Results

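The genes described here are those whose names mark them as nucleus-encoded parts of the mitochondrial respiratory chain and of ATP synthase. They were taken by name alone, as every row named NDUFA, NDUFB, NDUFC, NDUFS or NDUFV with a number, SDHA to SDHD, UQCR with any suffix, CYC1, COX4 to COX8 with any suffix, or ATP5 with any suffix. This gave 78 of the 21350 features listed for each library, with 36 in complex I, 4 in complex II, 9 in complex III, 12 in complex IV and 17 in ATP synthase, which is also called complex V. All 78 had enough counts to be tested, among 18979 features tested in all. Sorting by name is not exact. NDUFA4, sorted with complex I, is now regarded as a subunit of complex IV. ATP5S (factor B) and ATP5SL, which in mammals helps to assemble complex I, are not subunits of ATP synthase, and COX8BP carries the name of a pseudogene.

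RNA was sequenced from mesenchymal cells of chick limb buds (Gallus gallus, breed Lohmann Selected Leghorn) taken at embryonic day 4.5. The study looked for genes that act downstream of transcription factors of connective tissue, and every culture, Control included, was infected before seeding with the avian retroviral vector RCAS-BP(A). Control cells carried the vector RCAS-BP(A)-empty, and the other groups carried RCAS-BP(A)-OSR1-3F, RCAS-BP(A)-OSR2-3F, RCAS-BP(A)-EGR1-3F, RCAS-BP(A)-KLF2-3F or RCAS-BP(A)-KLF4-3F. OSR1, OSR2, EGR1, KLF2 and KLF4 are zinc-finger transcription factors. Cells were grown as dense droplets for 5 days, a setting in which limb mesenchyme forms cartilage, and each RNA extract pooled 6 cultures. There were 2 libraries per group and 12 in all, and the share of cells that carried the vector is not given in the labels.

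The respiratory chain lies in the inner mitochondrial membrane. Complex I takes electrons from NADH and complex II from succinate, and both pass them through ubiquinone to complex III, from there through cytochrome c to complex IV, and finally to oxygen. The proton gradient built on the way drives ATP synthase. Most subunits are encoded in the nucleus, made in the cytosol and imported, and they are assembled with a small set of core subunits encoded by mitochondrial DNA. Complex II has no subunit from mitochondrial DNA. In developing limb mesenchyme, glycolysis supplies much of the ATP, and cartilage cells in particular depend on it.

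Total counts were 51233721 and 59297870 in the 2 Control libraries and 74139243 to 106079374 in the 10 factor libraries, so both Control libraries were the smallest. Each overexpressed gene was highest in its own libraries, for example OSR1 at 3214 and 3179 CPM, which is counts scaled to a common library size, against 4.90 and 4.95 CPM in Control. Control stood apart in other measures too. Retroviral entries took 3.47% and 3.44% of counts in Control and 0.765% to 1.91% in factor libraries, and the 5.8S ribosomal RNA stood at 799 and 975 CPM in Control and at 1307 to 5608 CPM in factor libraries. The summed level of 19 cartilage markers was 21140 and 22660 CPM in Control, between 4243 and 6972 CPM with OSR1 or OSR2 and 15270 to 24200 CPM in the EGR1, KLF2 and KLF4 libraries. The summed level of 30 skeletal muscle markers was 1780 and 1896 CPM in Control, 2223 to 2298 CPM in OSR1 and OSR2, 2084 and 1958 CPM in EGR1 and 1287 to 1665 CPM in KLF2 and KLF4. In such bulk samples, fewer cells of a type and less RNA per cell cannot be told apart. The part of cell types, library size or the amount of viral RNA in the results below was not tested, and the 5 comparisons with Control share the same 2 Control libraries. The labels do not say whether the 2 libraries of a group came from separate infections or embryo pools. The spread between them may thus be technical. The p-values below rest on a spread estimated within all 6 groups together, not within the groups compared alone.

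The summed level of the respiratory chain genes was higher with each of the 5 factors than with the empty vector. It was 4172 and 4674 CPM in Control, 5706 and 5391 CPM in OSR1, 5470 and 5906 CPM in OSR2, 5741 and 5567 CPM in EGR1, 5835 and 5885 CPM in KLF2 and 5631 and 5615 CPM in KLF4. Every factor library lay above both Control libraries, and the means were 1.25, 1.29, 1.28, 1.32 and 1.27 times that of Control, in the order OSR1, OSR2, EGR1, KLF2 and KLF4, which is kept for all lists of 5 values below. For each complex the mean sum was higher with each factor than in Control, with a ratio of means of 1.26 to 1.32 for complex I, 1.19 to 1.29 for complex II, 1.26 to 1.33 for complex III, 1.16 to 1.24 for complex IV and 1.27 to 1.39 for ATP synthase. These sums were not tested. In complex IV the factor library with the lowest sum, OSR1 replicate 2 at 757.8 CPM, lay close to Control replicate 2 at 740.7 CPM.

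**Figure D1:**
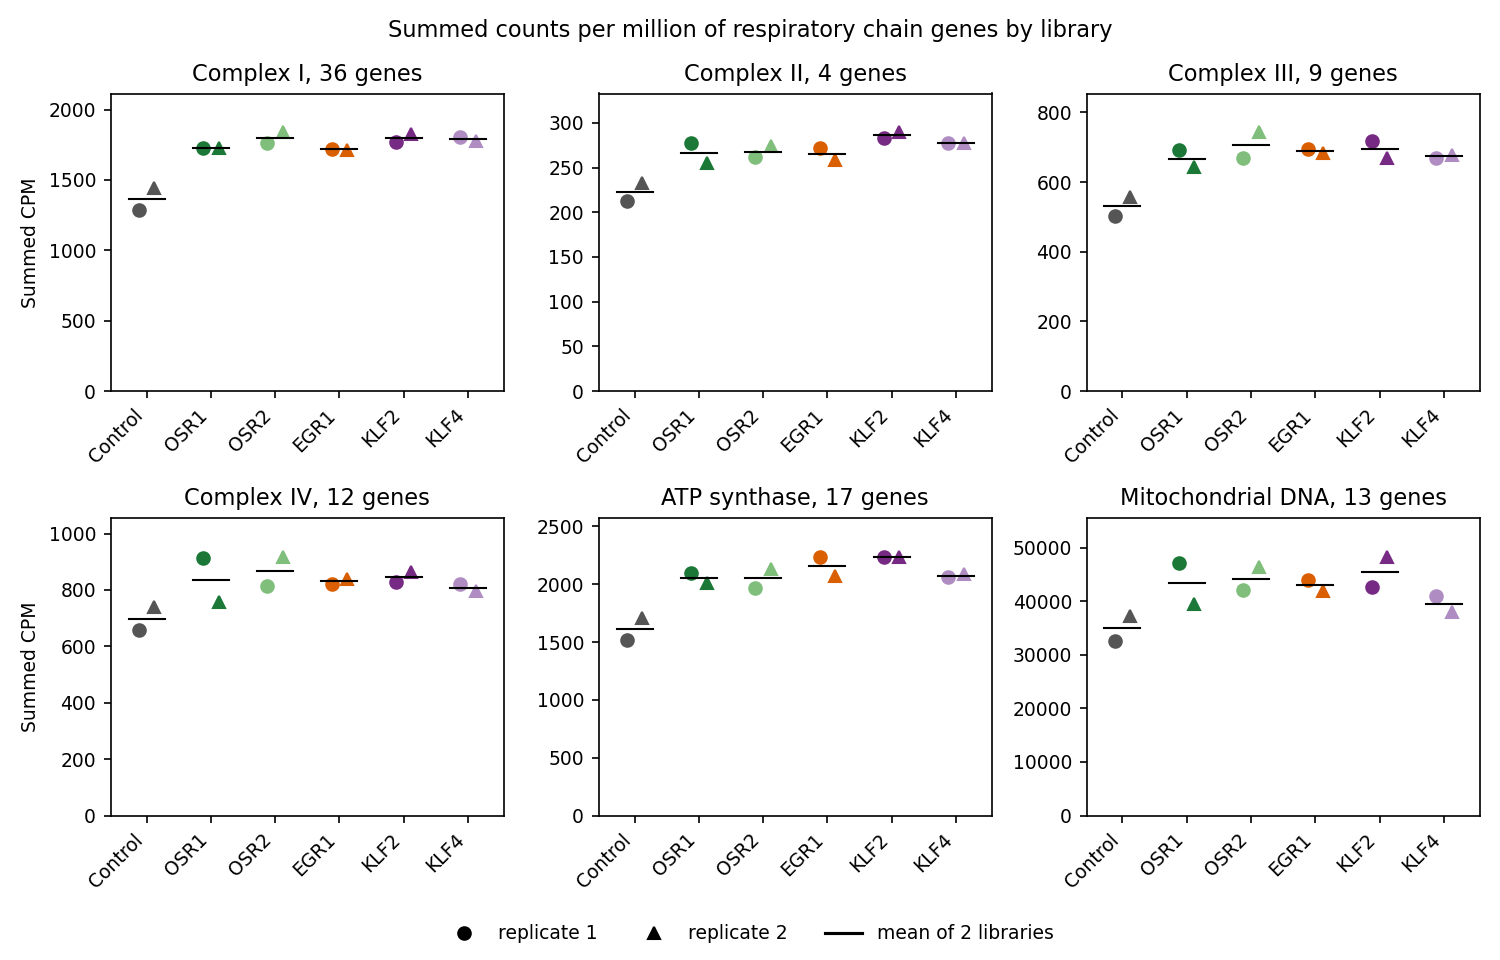
Summed CPM (linear axis from 0) of the nucleus-encoded genes of each complex and of the 13 genes of mitochondrial DNA, for the 2 libraries (circle, triangle) and their mean (line) in each group. In complexes I and III and in ATP synthase the 10 factor libraries lay well above both Control libraries. In complex IV the lowest of them, at 757.8 CPM, lay close to the higher Control library at 740.7 CPM. For the mitochondrial DNA genes the lowest, KLF4 replicate 2 at 38070 CPM, likewise lay close to the higher Control library at 37240 CPM.

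Gene by gene, a rise was called where edgeR's quasi-likelihood F test, fitted to all 12 libraries, gave a Benjamini-Hochberg adjusted p under 0.05 over all genes tested. With OSR1, 41 of the 78 genes rose and 1 fell, where 28.8% of all tested genes rose and 22.7% fell. With OSR2, 46 rose and 1 fell (29.2% and 23.1% of all genes), and with EGR1, 40 rose and 1 fell (24.9% and 20.5%). KLF2 had 46 rises and 1 fall (28.4% and 23.5%), and KLF4 had 45 rises and 2 falls (28.8% and 25.4%). The median log2 fold change of the 78 genes was 0.32, 0.38, 0.36, 0.38 and 0.38, against 0.05, 0.04, 0.01, 0.02 and -0.01 over all tested genes. Most rises were modest, since 7, 11, 10, 16 and 11 of the 78 genes were called at 2-fold or more.

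For 44 of the 78 genes all 10 factor libraries lay above both Control libraries, and for 1 gene, NDUFA5, all lay below (25.5% and 21.6% of all tested genes). The other 33 overlapped. These 44 genes were 21 of 36 in complex I, 2 of 4 in complex II, 5 of 9 in complex III, 6 of 12 in complex IV and 10 of 17 in ATP synthase. Leaving out Control replicate 1 lowered the counts, for these genes as for all genes tested. Leaving out Control replicate 2 lowered the number called among the 78 genes with KLF4 only. Over all tested genes it lowered the number called with each factor. The median log2 fold change of the 78 genes was 0.24, 0.28, 0.27, 0.32 and 0.34 in fits lacking Control replicate 1. In fits lacking Control replicate 2 it was 0.46, 0.51, 0.49, 0.48 and 0.48. Without Control replicate 1, the called genes, rises and falls together, went from 42 to 25 with OSR1, from 47 to 31 with OSR2, from 41 to 26 with EGR1, from 47 to 32 with KLF2 and from 47 to 33 with KLF4, and without OSR2 replicate 2 the OSR2 count was also 31. The share of all tested genes called higher went from 28.8% to 16.6% with OSR1, from 29.2% to 18.7% with OSR2, from 24.9% to 13.7% with EGR1, from 28.4% to 18.3% with KLF2 and from 28.8% to 21% with KLF4 without Control replicate 1. Of the called genes, 24 with OSR1, 30 with OSR2, 25 with EGR1, 30 with KLF2 and 33 with KLF4 kept their call under every alternative setting tried.

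**Figure D2:**
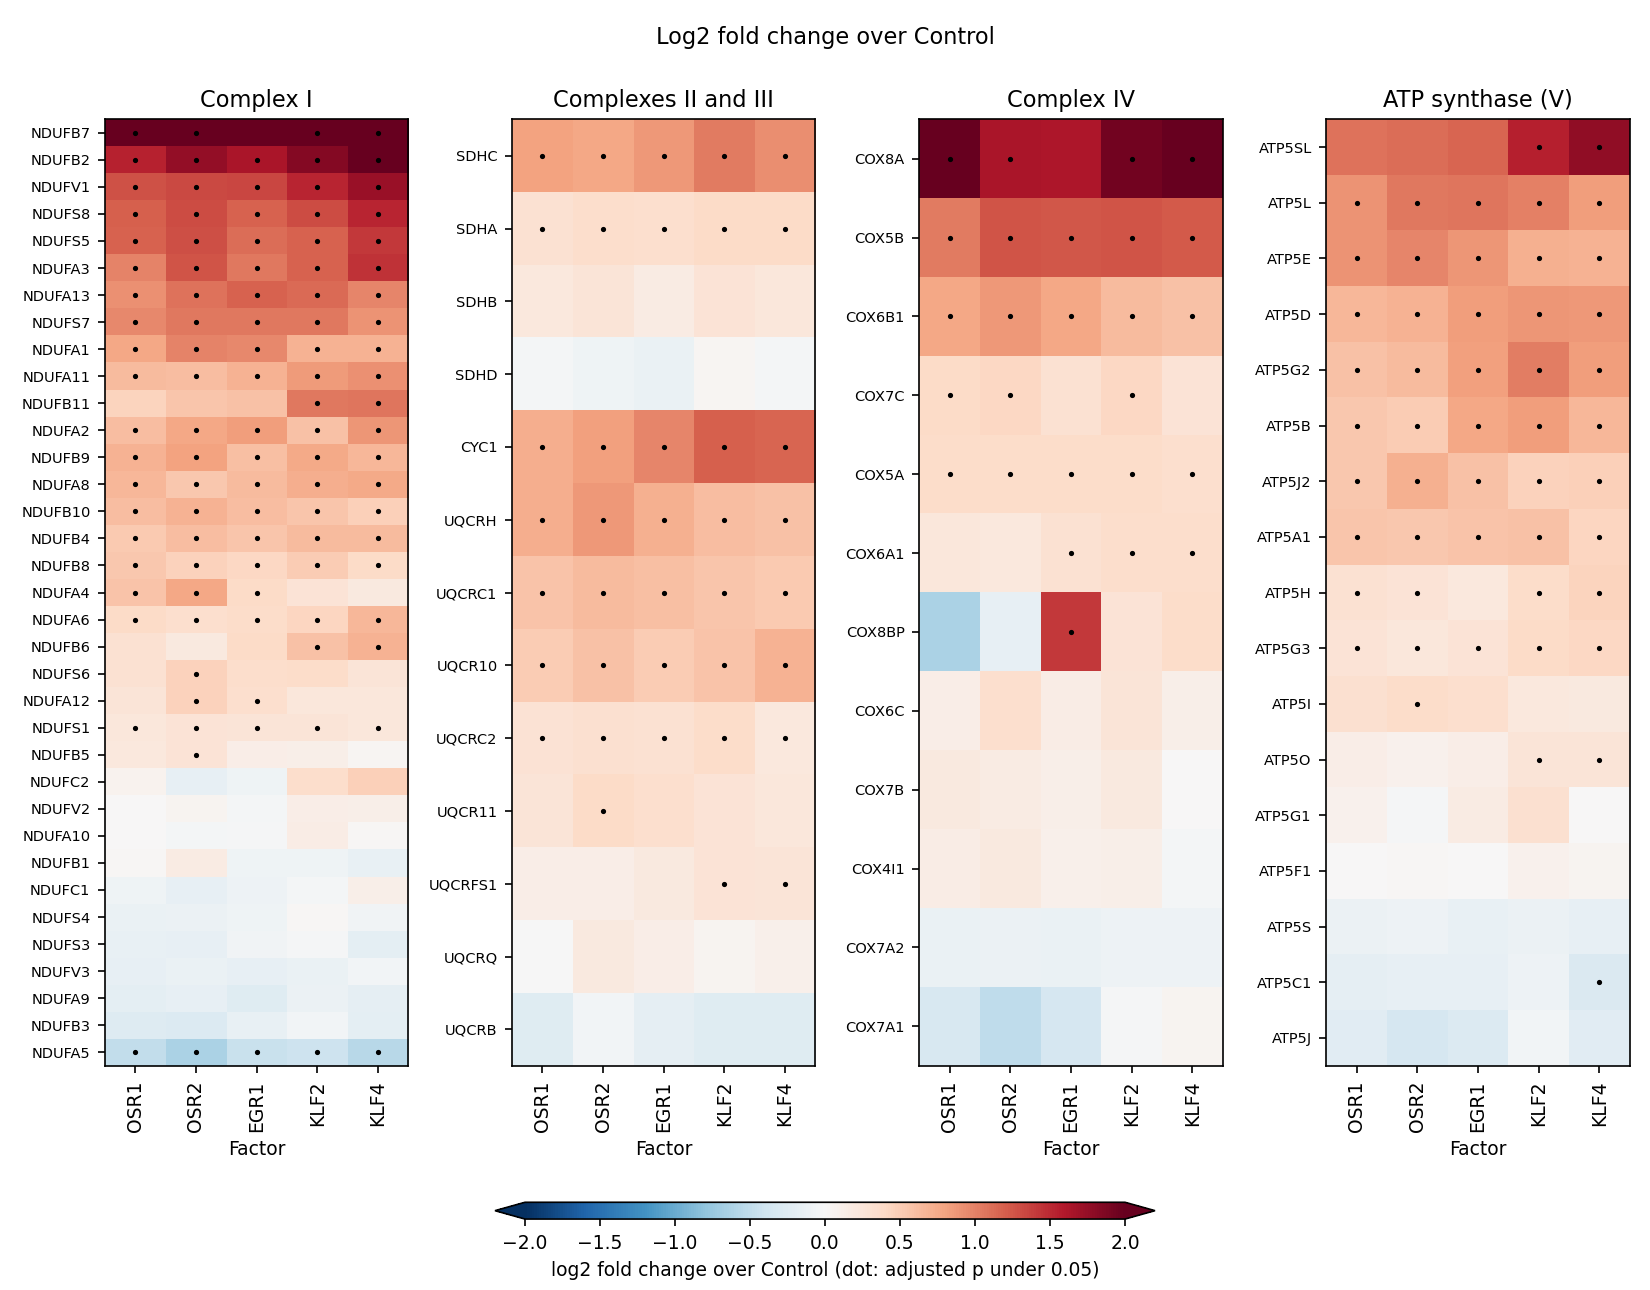
Log2 fold change over Control (color, saturated at -2 and 2) of 77 of the 78 genes for each factor, by complex and sorted within it by the mean over the factors, with a dot where the adjusted p was under 0.05. Red prevails in each complex, next to pale genes such as NDUFV2, COX7A2 and ATP5F1, and NDUFA5 at the foot of complex I is blue with each factor.

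In complex I, 20, 23, 20, 21 and 21 of the 36 genes rose and 1 fell in each comparison, with median log2 fold changes of 0.49, 0.50, 0.40, 0.54 and 0.55. Over all tested genes 24.9% to 29.2% rose and 20.5% to 25.4% fell, shares that apply to the complexes below too. Without Control replicate 1 the medians of complex I were 0.34, 0.34, 0.30, 0.40 and 0.45, against 0.05, 0.05, 0.02, 0.02 and 0 over all tested genes. Fewer of the 36 were then called higher with each factor, as for all tested genes. The subunits of the catalytic core of complex I carry the flavin and the iron-sulfur clusters that lead electrons from NADH to ubiquinone. NDUFV1, which binds NADH and the flavin, stood, in CPM, at 17 and 25.9 with the empty vector, 36.7 and 67.8 with OSR1, 51.3 and 55.7 with OSR2, 63 and 45.3 with EGR1, 66.9 and 56.5 with KLF2 and 67.2 and 74.1 with KLF4. All factor libraries were above Control, and its log2 fold changes were 1.28, 1.32, 1.33, 1.52 and 1.72 (SE 0.28, adjusted p 0.000761 to 0.00423). NDUFS7, an iron-sulfur subunit at the ubiquinone site, stood, in CPM, at 17.2 and 21.4 with the empty vector, 36.6 and 38.5 with OSR1, 35.8 and 44.5 with OSR2, 44.2 and 36.5 with EGR1, 42.4 and 38 with KLF2 and 36.1 and 36.2 with KLF4. Its values lay in a narrow band in the 10 factor libraries, all above Control, with log2 fold changes of 0.96, 1.06, 1.06, 1.06 and 0.90 (SE 0.14, adjusted p 0.000233 to 0.000537).

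NDUFS8, which carries iron-sulfur clusters next to NDUFS7, went from 13.2 and 18.1 CPM in Control to 28.9 to 45.3 CPM across the factor libraries, with log2 fold changes of 1.20, 1.31, 1.18, 1.30 and 1.52 (SE 0.23, adjusted p 0.000439 to 0.00265). The calls of NDUFV1, NDUFS7 and NDUFS8 held in every comparison with Control under each alternative tried. NDUFS1, the largest iron-sulfur subunit, rose by less, from 126 and 128 CPM in Control to 141 to 156 CPM in factor libraries, with log2 fold changes of 0.22, 0.27, 0.26, 0.25 and 0.22 (SE 0.07, adjusted p 0.00627 to 0.0191). Without Control replicate 1 its call ended with OSR1, EGR1, KLF2 and KLF4. NDUFV2 and NDUFS3, also of the core, were not called. NDUFV2, the partner of NDUFV1, stood at 41.3 and 45.4 CPM in Control and at 39.7 to 53.7 CPM in factor libraries (log2 fold changes 0.01, 0.06, -0.04, 0.13 and 0.11, SE 0.12, adjusted p 0.423 to 0.937). NDUFS3 stood at 54.7 and 57.6 CPM in Control and 45.2 to 58.6 CPM in factor libraries (log2 fold changes -0.15, -0.17, -0.07, -0.02 and -0.20, SE 0.10, adjusted p 0.127 to 0.899). The factor libraries overlapped Control for both genes.

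Accessory subunits of complex I surround the core and stabilise it. NDUFB7 and NDUFB2, small subunits of the membrane arm, had the largest fold changes. NDUFB2 stood, in CPM, at 5.51 and 8.48 with the empty vector, 12.5 and 28.4 with OSR1, 23.3 and 24.2 with OSR2, 24.2 and 19.3 with EGR1, 26 and 23.9 with KLF2 and 35.4 and 31.5 with KLF4, and its log2 fold changes were 1.54, 1.76, 1.63, 1.83 and 2.25 (SE 0.33, adjusted p 0.000409 to 0.00346). All factor libraries lay above Control, but OSR1 replicate 1 was the lowest of them. NDUFB7 stood, in CPM, at 1.76 and 3.29 with the empty vector, 3.30 and 25.6 with OSR1, 11.4 and 10.7 with OSR2, 13.4 and 7.05 with EGR1, 17.1 and 11.2 with KLF2 and 28.5 and 28.4 with KLF4. Both KLF4 libraries were high and alike, while OSR1 replicate 1 lay level with Control replicate 2. Its log2 fold changes were 2.51, 2.12, 2.01, 2.48 and 3.49 (SE 0.75 to 0.77), with adjusted p of 0.0189, 0.0363, 0.0501, 0.0193 and 0.00372, so the EGR1 value missed the threshold. With KLF4 the call held in every alternative, and the OSR1 value was 0.38 (adjusted p = 0.50) without OSR1 replicate 2. Without Control replicate 1 the OSR1, OSR2 and KLF2 calls ended (adjusted p = 0.12, 0.18 and 0.12).

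Accessory subunits with steadier values rose as well. NDUFS5, a small subunit on the outer face of the inner membrane, went from 15.4 and 20.5 CPM in Control to 33.8 to 49.3 CPM in factor libraries, with log2 fold changes of 1.18, 1.29, 1.11, 1.18 and 1.42 (SE 0.18, adjusted p 0.000194 to 0.00136). NDUFA13, known as GRIM-19, went from 5.46 and 7.83 to 11.8 to 17.3 CPM, with log2 fold changes of 0.91, 1.08, 1.18, 1.13 and 0.98 (SE 0.20, adjusted p 0.00121 to 0.00399). NDUFA11, a membrane arm subunit, had log2 fold changes of 0.63, 0.62, 0.70, 0.85 and 0.92 (SE 0.09, adjusted p 4.88e-05 to 0.000543) and stood at 22.9 and 25 CPM in Control and 35.5 to 47 CPM in factor libraries. The calls of these 3 genes, chosen after their values were seen, held in every alternative. At the other end, accessory genes such as NDUFA9, NDUFA10, NDUFB1, NDUFB3, NDUFC1, NDUFC2, NDUFS4 and NDUFV3 were called in none of the comparisons with Control. NDUFA10 stood at 147 and 146 CPM in Control and 139 to 179 CPM in factor libraries.

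NDUFA5, an accessory subunit of the arm that reaches into the matrix, was the only one of the 78 genes called lower with OSR1, OSR2, EGR1 and KLF2. It stood, in CPM, at 39.5 and 44.9 with the empty vector, 32.1 and 28.1 with OSR1, 27.1 and 27.4 with OSR2, 29.4 and 32.2 with EGR1, 27 and 36.2 with KLF2 and 29.2 and 28 with KLF4. All factor libraries lay below both Control libraries, and the log2 fold changes were -0.49, -0.63, -0.45, -0.42 and -0.56 (SE 0.13, adjusted p 0.00317 to 0.0245). Without Control replicate 2 the call ended with OSR1 (adjusted p = 0.082), EGR1 (adjusted p = 0.12) and KLF2 (adjusted p = 0.14). It also ended without OSR1 replicate 2 (adjusted p = 0.079), EGR1 replicate 1 (adjusted p = 0.12) and KLF2 replicate 1 (adjusted p = 0.089) in the comparison each belongs to. With OSR2 and KLF4 it held in every alternative.

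Complex II, which is also an enzyme of the citric acid cycle, had 2 genes that rose and 2 that were not called in each comparison. Without Control replicate 1 the medians of its genes were 0.18, 0.22, 0.17, 0.26 and 0.22, against 0.05, 0.05, 0.02, 0.02 and 0 over all tested genes. Fewer were then called higher with OSR1 and EGR1. SDHA, the flavin subunit that oxidises succinate, stood, in CPM, at 104 and 112 with the empty vector, 143 and 125 with OSR1, 137 and 139 with OSR2, 135 and 138 with EGR1, 143 and 141 with KLF2 and 141 and 140.5 with KLF4. On the log2 scale its fold changes were 0.31, 0.35, 0.34, 0.39 and 0.38 (SE 0.07, adjusted p 0.0016 to 0.00594). All factor libraries lay above both Control libraries, and without Control replicate 1 the call ended with OSR1 (adjusted p = 0.06) and with EGR1, where the adjusted p rounded to 0.05. SDHC, a membrane anchor of the complex, stood, in CPM, at 21 and 26.1 with the empty vector, 38.8 and 43.3 with OSR1, 37.4 and 43.3 with OSR2, 50.3 and 35.5 with EGR1, 51.9 and 45 with KLF2 and 43.4 and 46.6 with KLF4, with log2 fold changes of 0.80, 0.78, 0.87, 1.04 and 0.93 (SE 0.17, adjusted p 0.000789 to 0.00353) that held in every alternative. SDHB, the iron-sulfur subunit, stood at 15.8 and 18.6 CPM in Control and 18.2 to 21.6 CPM in factor libraries, with log2 fold changes of 0.21, 0.25, 0.16, 0.28 and 0.22 (SE 0.11, adjusted p 0.0601 to 0.279). The other anchor, SDHD, stood at 71.1 and 76.1 CPM in Control and 66.7 to 82.5 CPM in factor libraries, with log2 fold changes of -0.04, -0.09, -0.14, 0.04 and -0.04 (SE 0.09, adjusted p 0.245 to 0.766). The difference between the anchors SDHC and SDHD was not tested.

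In complex III, 5, 6, 5, 6 and 6 of the 9 genes rose and 0 fell, with medians of 0.29, 0.39, 0.33, 0.36 and 0.26. Without Control replicate 1 the medians were 0.27, 0.30, 0.28, 0.34 and 0.19, against 0.05, 0.05, 0.02, 0.02 and 0 over all tested genes. Fewer of the 9 were then called higher with each factor. With OSR1, OSR2 and EGR1 their share lay not far above that of all tested genes in the same fits. UQCRC1, a core protein of the complex, stood, in CPM, at 105 and 116 with the empty vector, 172 and 156 with OSR1, 160.1 and 183 with OSR2, 174 and 159 with EGR1, 181 and 144 with KLF2 and 154 and 162 with KLF4. The log2 fold changes of 0.57, 0.64, 0.60, 0.56 and 0.52 (SE 0.12, adjusted p 0.00137 to 0.00367) held in every alternative. UQCRH, the hinge protein that helps cytochrome c bind, went from 39.7 and 47.8 CPM in Control to 64 to 88 CPM in factor libraries, with log2 fold changes of 0.72, 0.87, 0.71, 0.62 and 0.58 (SE 0.13, adjusted p 0.000459 to 0.0037), which also held. CYC1, the heme-bearing cytochrome c1 that hands electrons to cytochrome c, stood, in CPM, at 17.2 and 25.6 with the empty vector, 26.8 and 44 with OSR1, 37.6 and 38.4 with OSR2, 47.3 and 37.4 with EGR1, 49.4 and 48.4 with KLF2 and 47.5 and 48.4 with KLF4. Its log2 fold changes were 0.72, 0.82, 0.98, 1.19 and 1.16 (SE 0.23, adjusted p 0.00196 to 0.0234). OSR1 replicate 1 lay close to Control replicate 2, and without OSR1 replicate 2 the OSR1 value was 0.32 (adjusted p = 0.23). Leaving out Control replicate 1, the calls with OSR1 (0.47, adjusted p = 0.18), OSR2 (adjusted p = 0.11) and EGR1 (adjusted p = 0.063) ended.

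UQCRFS1, the Rieske iron-sulfur protein that works beside CYC1, stood at 72.9 and 81.3 CPM in Control and 80.0 to 94.5 CPM in factor libraries. On the log2 scale its fold changes were 0.13, 0.13, 0.20, 0.28 and 0.26 (SE 0.08, adjusted p 0.0139 to 0.188), and it was called with KLF2 and KLF4 only, where the call ended without Control replicate 1 (adjusted p = 0.13 and 0.14). UQCRB and UQCRQ, small subunits of the membrane part, were called in no comparison with Control. They stood at 77.7 and 81 CPM and 10.8 and 13.1 CPM in Control, and at 58.7 to 81.4 CPM and 10.5 to 14.9 CPM in factor libraries.

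In complex IV, cytochrome c oxidase, 5, 5, 5, 6 and 5 of the 12 nuclear genes rose and 0 fell, with medians of 0.21, 0.27, 0.30, 0.31 and 0.30. When Control replicate 1 was left out, the medians were 0.12, 0.20, 0.21, 0.25 and 0.22, against 0.05, 0.05, 0.02, 0.02 and 0 over all tested genes. Fewer of the 12 were then called higher with each factor, at a share near that of all tested genes in the same fits. A gene was called lower with OSR2. COX5B, a zinc-binding subunit on the matrix side, stood, in CPM, at 12.8 and 16.7 with the empty vector, 26.9 and 33.8 with OSR1, 33.5 and 37.2 with OSR2, 36.4 and 33.6 with EGR1, 39.9 and 30.7 with KLF2 and 34.6 and 34.2 with KLF4. Both Control libraries lay far below the other 10, and the log2 fold changes of 1.04, 1.26, 1.24, 1.26 and 1.22 (SE 0.16, adjusted p 0.000203 to 0.000694) held in every alternative. COX5A, its neighbour in the complex, rose by less, from 59.1 and 67.6 CPM in Control to 73.1 to 89.3 CPM in factor libraries, with log2 fold changes of 0.36, 0.37, 0.37, 0.36 and 0.34 (SE 0.10, adjusted p 0.0102 to 0.0153), and all 5 calls ended without Control replicate 1 (adjusted p = 0.095 to 0.13). COX6B1, which faces cytochrome c, went from 47.7 and 56.9 to 71.2 to 100.3 CPM, with log2 fold changes of 0.77, 0.87, 0.78, 0.63 and 0.58 (SE 0.14, adjusted p 0.000705 to 0.00581), and its KLF4 call alone ended without Control replicate 1 (adjusted p = 0.059).

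Subunits of complex IV that exist as tissue isoforms in mammals gave unlike values. COX4I1, the broadly expressed form of the largest nuclear subunit, stood, in CPM, at 168 and 193 with the empty vector, 229 and 172 with OSR1, 188 and 226 with OSR2, 194 and 194 with EGR1, 194 and 195 with KLF2 and 175 and 177 with KLF4, and the groups overlapped. Its log2 fold changes were 0.15, 0.20, 0.10, 0.11 and -0.04 (SE 0.13, adjusted p 0.223 to 0.828). COX6A1, the non-muscle form in mammals, stood at 64.3 and 76.2 CPM in Control and 78.3 to 94.6 CPM in factor libraries. It was called with EGR1, KLF2 and KLF4, with log2 fold changes of 0.22, 0.21, 0.30, 0.35 and 0.35 (SE 0.10, adjusted p 0.0119 to 0.0912), and these calls ended without Control replicate 1. COX7A2, the form found in most mammalian tissues, stood, in CPM, at 89.3 and 95.2 with the empty vector, 94.1 and 74.2 with OSR1, 82.2 and 87.7 with OSR2, 81.8 and 86.9 with EGR1, 82.2 and 90.5 with KLF2 and 87.5 and 85.3 with KLF4 and overlapped between groups, with log2 fold changes of -0.13, -0.12, -0.13, -0.10 and -0.10 (SE 0.11, adjusted p 0.312 to 0.469). COX7A1, which in mammals is the heart and muscle form, stood at 5.03 and 6.83 CPM in Control and 4.09 to 6.83 CPM in factor libraries, and it was called in no comparison with Control (log2 fold changes -0.32, -0.51, -0.33, -0.02 and 0.06, SE 0.21, adjusted p 0.0632 to 0.951).

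COX8A, the broadly expressed form of the smallest subunit, had the largest fold changes of complex IV. It stood, in CPM, at 1.61 and 2.56 with the empty vector, 2.71 and 14.4 with OSR1, 7.04 and 5.91 with OSR2, 7.77 and 5.08 with EGR1, 9.41 and 6.61 with KLF2 and 21.8 and 17.7 with KLF4. Both KLF4 libraries were the highest, and OSR1 replicate 1 lay level with Control replicate 2. The log2 fold changes were 2.03, 1.63, 1.62, 1.93 and 3.24 (SE 0.62 to 0.63), with adjusted p of 0.0198, 0.0473, 0.054, 0.0238 and 0.00189. With KLF4 the call held in every alternative, while without OSR1 replicate 2 the OSR1 value was 0.37 (adjusted p = 0.42), and the OSR2 and KLF2 calls ended without Control replicate 1 (adjusted p = 0.21 and 0.14). COX8BP stood at 0.062 to 0.347 CPM in the 12 libraries, few counts even at this depth, although it was called with EGR1 at 1.42 (SE 0.51, adjusted p = 0.0423). That call ended in 6 of 10 alternatives, with an adjusted p of 0.15 without Control replicate 1 and 0.18 without EGR1 replicate 1.

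ATP synthase consists of the F1 head, where ATP is made, and the membrane rotor and stalks that turn and hold it. Of its 17 genes by name, 9, 10, 8, 11 and 11 rose, and 1 fell with KLF4, with medians of 0.32, 0.37, 0.33, 0.39 and 0.43. In fits lacking Control replicate 1 the medians were 0.22, 0.23, 0.21, 0.33 and 0.35, against 0.05, 0.05, 0.02, 0.02 and 0 over all tested genes. Fewer of the 17 were then called higher with each factor. Their share stayed above that of all tested genes in the same fits, though only a little with OSR1. Among the 5 subunits of F1, 4 rose with each factor, with a median over the 5 of 0.55, 0.54, 0.78, 0.71 and 0.66. Leaving out Control replicate 1, this median was 0.50, 0.50, 0.65, 0.63 and 0.53. Of the other 12 genes 5, 6, 4, 7 and 7 rose, with medians of 0.29, 0.25, 0.24, 0.34 and 0.33. ATP5A1, the alpha subunit, stood, in CPM, at 345 and 368 with the empty vector, 547 and 493 with OSR1, 493 and 547 with OSR2, 554 and 501 with EGR1, 567 and 498 with KLF2 and 464 and 494 with KLF4. The log2 fold changes of 0.55, 0.54, 0.57, 0.58 and 0.43 (SE 0.10, adjusted p 0.000884 to 0.00394) held in every alternative. Chickens carry copies of this gene on both sex chromosomes, and the files list no row for a copy on W, so how its reads were counted is uncertain. ATP5B, the catalytic beta subunit, stood, in CPM, at 261 and 315 with the empty vector, 386 and 455 with OSR1, 399.5 and 422 with OSR2, 550.5 and 439.7 with EGR1, 533 and 499 with KLF2 and 447 and 465 with KLF4, with log2 fold changes of 0.54, 0.51, 0.78, 0.84 and 0.66 (SE 0.13, adjusted p 0.000559 to 0.00716). After leaving out Control replicate 1, its calls with OSR1 (adjusted p = 0.059) and OSR2 (adjusted p = 0.072) ended.

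ATP5D and ATP5E, the delta and epsilon subunits of the rotating stalk, rose from 38.6 and 48.7 to 62.6 to 85 CPM and from 29.6 and 33.1 to 44.5 to 67.3 CPM. Their log2 fold changes were 0.67, 0.70, 0.83, 0.89 and 0.87 (SE 0.12 to 0.13, adjusted p 0.000354 to 0.00177) and 0.90, 0.98, 0.89, 0.71 and 0.69 (SE 0.14, adjusted p 0.000367 to 0.00228), and held in every alternative. ATP5C1, the gamma subunit that forms the shaft of the same stalk, was not called higher. It stood, in CPM, at 169.8 and 178 with the empty vector, 166 and 141 with OSR1, 152 and 157 with OSR2, 148 and 160.4 with EGR1, 147 and 178 with KLF2 and 142 and 142 with KLF4, with log2 fold changes of -0.18, -0.17, -0.17, -0.10 and -0.29 (SE 0.10, adjusted p 0.0353 to 0.428). It was called lower with KLF4 alone, and that call ended without Control replicate 2 (adjusted p = 0.15).

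The membrane-embedded c subunit is made from several genes, whose reads may be hard to separate since their mature proteins are alike. ATP5G2 stood, in CPM, at 25.3 and 34.8 with the empty vector, 40.0 and 50.2 with OSR1, 43 and 50.5 with OSR2, 60.9 and 45.4 with EGR1, 61.5 and 61.3 with KLF2 and 52.8 and 53.9 with KLF4, with log2 fold changes of 0.59, 0.64, 0.82, 1.03 and 0.83 (SE 0.18, adjusted p 0.00112 to 0.0197), and without Control replicate 1 its calls with OSR1 (0.37, adjusted p = 0.16) and OSR2 (adjusted p = 0.11) ended. ATP5G3 went from 114 and 124 CPM in Control to 134 to 164 CPM in factor libraries, with log2 fold changes of 0.28, 0.22, 0.27, 0.39 and 0.41 (SE 0.07, adjusted p 0.00124 to 0.0325). Its calls with OSR1, OSR2 and EGR1 ended without Control replicate 1. ATP5G1 stood at 22 and 23.5 CPM in Control and 21 to 31.6 CPM in factor libraries and was called in no comparison (log2 fold changes 0.09, -0.02, 0.17, 0.32 and 0.01, SE 0.14, adjusted p 0.0694 to 0.935).

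ATP5L, subunit g of the membrane part, stood, in CPM, at 24.7 and 28.9 with the empty vector, 55.6 and 44.4 with OSR1, 49.8 and 62 with OSR2, 58.8 and 53.9 with EGR1, 57.3 and 50.0 with KLF2 and 47.9 and 47.9 with KLF4. The log2 fold changes of 0.90, 1.06, 1.07, 1.00 and 0.84 (SE 0.14, adjusted p 0.000227 to 0.0008) held in every alternative. ATP5F1, subunit b of the outer stalk, was called in no comparison with Control. It stood at 152 and 164 CPM in Control and 145 to 184 CPM in factor libraries (log2 fold changes 0.00, 0.02, 0.00, 0.09 and 0.05, SE 0.10, adjusted p 0.499 to 0.999). ATP5O, which joins the outer stalk to F1, was called with KLF2 and KLF4 (0.26 and 0.25), and these calls ended without Control replicate 1. ATP5J and ATP5S were called in no comparison with Control. ATP5SL, not a subunit, went from 1.84 and 4.16 CPM in Control to 3.43 to 10.6 CPM in factor libraries, with log2 fold changes of 1.09, 1.12, 1.16, 1.55 and 1.77 (SE 0.46, adjusted p 0.00847 to 0.069), and it was called with KLF2 and KLF4, where the calls ended without Control replicate 1 (adjusted p = 0.12 and 0.069).

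**Figure D3:**
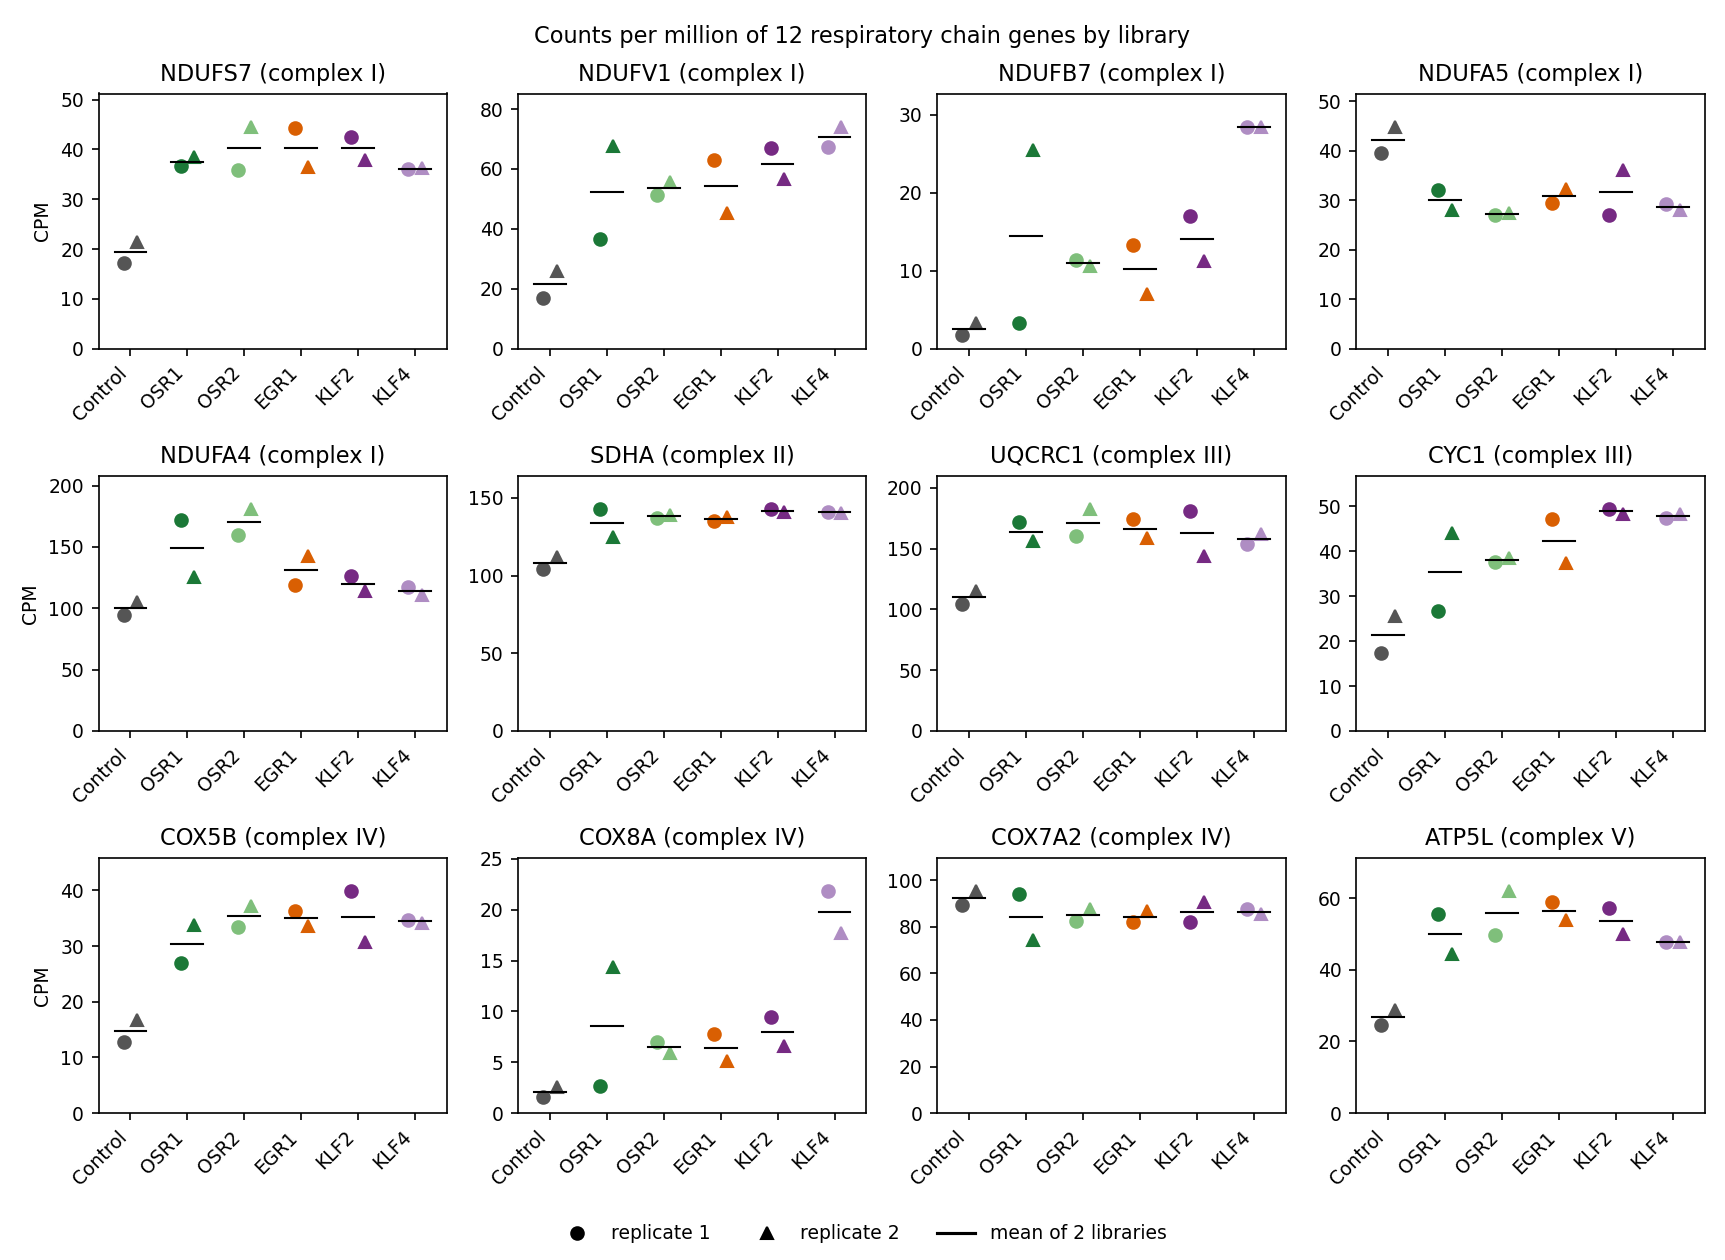
CPM (linear axes from 0) of 12 of the genes in each library (circle, replicate 1; triangle, replicate 2), with the mean of the 2 libraries as a line. NDUFS7, COX5B and ATP5L lie in a band above Control with all factors, NDUFA5 lies below Control, COX7A2 overlaps, and in OSR1 the replicates of NDUFB7 (3.30 and 25.6 CPM) and COX8A (2.71 and 14.4 CPM) lie far apart.

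Several genes with the largest fold changes also differed between replicate libraries. In Control, 7 of the 78 genes differed by more than 1.5-fold between the 2 libraries (8.97%, against 10.3% of all tested genes), and in each case replicate 2 was higher. These were ATP5SL, NDUFB7, NDUFA3, NDUFB11, COX8A, NDUFB2 and NDUFV1. With KLF4 the log2 fold changes of these 7 over Control were 1.77, 3.49, 1.45, 1.07, 3.24, 2.25 and 1.72. In OSR1, 8 genes differed by more than 1.5-fold (10.3%, against 13.8% of all tested genes), again with replicate 2 higher. The gap on the log2 scale was 2.94 for NDUFB7, 2.40 for COX8A, 1.44 for ATP5SL, 1.18 for NDUFB2 and 0.89 for NDUFV1. In EGR1 replicate 1 was the higher one for these genes, with gaps of -0.92 for NDUFB7, -0.61 for COX8A and -0.64 for ATP5SL. The number of genes past 1.5-fold was 1 for OSR2, 3 for EGR1, 4 for KLF2 and 1 for KLF4. These were 1.28%, 3.85%, 5.13% and 1.28% of the 78 genes, against 8.68%, 7.89%, 11.6% and 5.65% of all tested genes. The median size of the log2 gap of the 78 genes exceeded that of all tested genes in Control (0.22 against 0.13). It also did in OSR1 (0.24 against 0.17). In OSR2 (0.12 against 0.14), EGR1 (0.12 against 0.17), KLF2 (0.19 against 0.2) and KLF4 (0.05 against 0.09) it was smaller. In Control, replicate 2 was the higher one for nearly all of the 78 genes.

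The same libraries parted in genes that are not part of the respiratory chain. EMILIN1, an extracellular matrix gene, stood at 2.10 and 3.73 CPM in Control, 8.94 and 50.7 CPM in OSR1 and 25.3 and 26.0 CPM in KLF4. WBP1 stood at 0.863 and 1.9 CPM in Control, 4.09 and 20.0 CPM in OSR1 and 24.0 and 21.4 CPM in KLF4. HIC1 was alike, at 1.63 and 2.89 CPM in Control, 7.43 and 30.2 CPM in OSR1 and 29.3 and 28.1 CPM in KLF4. USP11 also parted in OSR1, at 2.38 and 16.8 CPM. In KLF4 it stood at 0.974 and 0.913 CPM, level with Control at 0.957 and 1.04 CPM, and in EGR1 its replicate 2 was the higher one. These genes were chosen after their values were seen, and whether a property shared by them sets the gap was not tested. By contrast, NDUFS7, COX5B, NDUFA1 and UQCRC1 were called with every factor in every alternative.

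**Figure D4:**
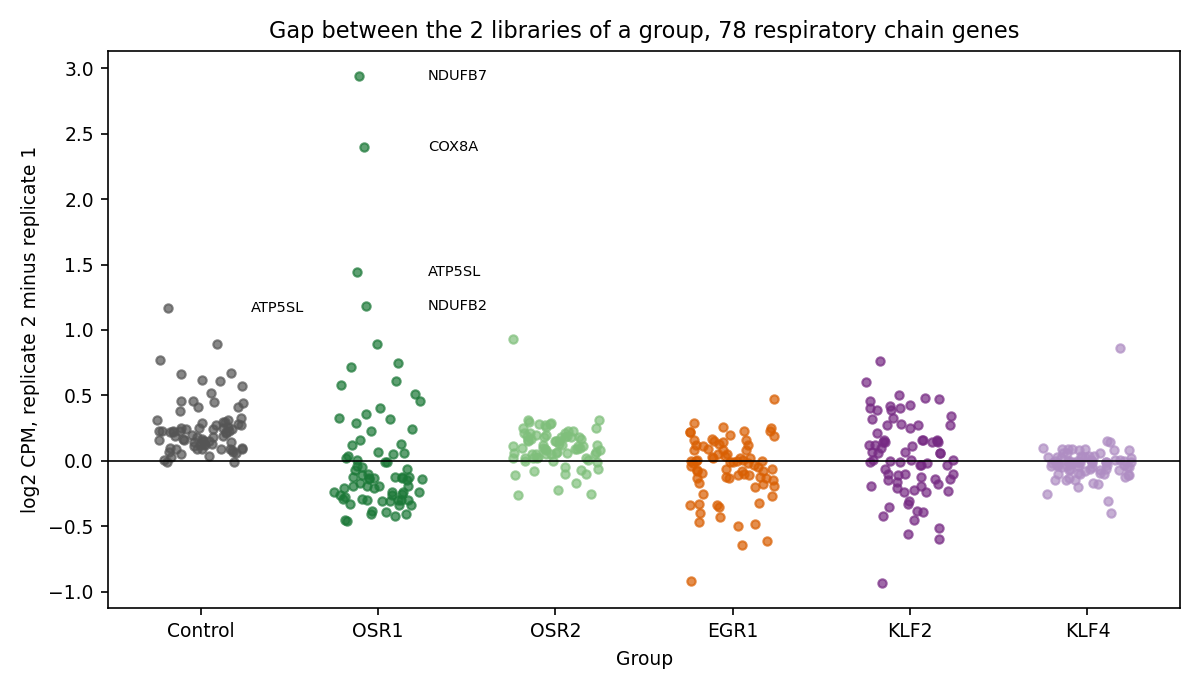
Difference of log2 CPM between replicate 2 and replicate 1 of each group for the 78 genes, 1 point per gene, with genes beyond 1 in either direction named. Points of Control lie nearly all above 0, OSR1 has a tail of 4 named genes above 1, and KLF4 has the smallest median size of the gap, 0.05.

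Comparisons between factors set factor groups against each other, without the Control means. The Control libraries still entered the shared fit and its estimate of the spread. Between the mean of KLF2 and KLF4 and the mean of OSR1 and OSR2, 5 of the 78 genes were higher and 1 was lower, where 15.7% and 17.5% of all tested genes were. The median log2 difference was 0.06, against 0.01 for all tested genes. The lower gene was NDUFA4, which stood at 172, 126, 160 and 181 CPM in the OSR1 and OSR2 libraries and at 126, 114, 118 and 110 CPM in the KLF2 and KLF4 libraries. The lowest OSR library lay just below the highest KLF library, and the log2 difference was -0.44 (SE 0.10, adjusted p = 0.00742), a call that held in every alternative. Over Control the same gene was called higher with OSR1, OSR2 and EGR1, with log2 fold changes of 0.57, 0.77, 0.39, 0.27 and 0.19 (SE 0.14, adjusted p 0.00167 to 0.289). The EGR1 call (adjusted p = 0.0491) ended in 7 of 10 alternatives, with an adjusted p of 0.23 without Control replicate 1 and 0.26 without EGR1 replicate 2, and the OSR1 call ended in 2 of 10, with 0.067 without Control replicate 1 and 0.058 without OSR1 replicate 1. Between the KLF and OSR factors 21 of 29 skeletal muscle markers were lower and 1 was higher, and 19 of 19 cartilage markers were higher, and the part of muscle and cartilage cells in the value of NDUFA4 was not tested.

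The 5 genes that were higher with the KLF factors were NDUFC2 0.46 (SE 0.16, adjusted p = 0.049), COX7A1 0.44 (SE 0.15, adjusted p = 0.0435), NDUFB6 0.39 (SE 0.10, adjusted p = 0.014), NDUFA11 0.27 (SE 0.07, adjusted p = 0.0103) and ATP5G3 0.15 (SE 0.05, adjusted p = 0.0467). NDUFA11 stood at 35.5 to 38.0 CPM in the OSR libraries and 39.5 to 47.0 CPM in the KLF libraries, without overlap, and its call held in every alternative. NDUFB6 lost its call without OSR2 replicate 2 alone (adjusted p = 0.055), and the calls of NDUFC2, COX7A1 and ATP5G3 ended under several alternatives. The count of called genes, 6, depends on single libraries. It was 21 without OSR1 replicate 2, 15 without KLF2 replicate 1, 2 without OSR2 replicate 2, and 3 without OSR2 replicate 1, KLF2 replicate 2 or either KLF4 library. Without OSR1 replicate 2, NDUFB7 (1.73), COX8A (1.58), ATP5SL (1.01), NDUFB2 (0.74), CYC1 (0.60) and NDUFV1 (0.58) were among the genes called higher. The share of the respiratory chain genes called higher in that fit lay near that of all tested genes. Their share called lower stayed below it. In each of the fits lacking a library named here, their share called in either direction stayed below that of all tested genes.

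Between OSR1 and OSR2, 0 of the 78 genes were called, where 0.00527% of all tested genes were called in each direction, and 0 had an unadjusted p under 0.05. DESeq2 also called 0. The log2 differences ran from -0.47 to 0.40. Between KLF2 and KLF4, 0 of the 78 were called by edgeR or DESeq2, where 0.643% of all genes were higher and 1.91% lower in KLF2. There, 2 genes had an unadjusted p under 0.05, COX8A (log2 difference -1.30, SE 0.57, adjusted p = 0.329) and ATP5G1 (0.31, SE 0.13, adjusted p = 0.328). COX8A stood at 9.41 and 6.61 CPM in KLF2 and 21.8 and 17.7 CPM in KLF4, and a fit of these 2 groups alone called it (adjusted p = 0.049). NDUFB7, at 17.1 and 11.2 CPM in KLF2 and 28.5 and 28.4 CPM in KLF4, was not called (log2 difference -1.01, SE 0.68, adjusted p = 0.551).

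The 13 subunits encoded by mitochondrial DNA were looked at beside the nuclear genes, from lists of pathway genes drawn up by function. Their summed level was 32660 and 37240 CPM in Control and 38070 to 48300 CPM in factor libraries. Among these, those that rose numbered 9, 9, 8, 9 and 7 and 0 fell, with median log2 fold changes of 0.43, 0.45, 0.41, 0.52 and 0.35. Over all tested genes 24.9% to 29.2% rose and 20.5% to 25.4% fell, and the counts of the 13 were not tested against those shares. ND4L, a small membrane subunit of complex I whose gene overlaps ND4, had the largest change, at 1.29, 1.40, 1.36, 1.19 and 1.23 (SE 0.21, adjusted p 0.000427 to 0.00112). The catalytic subunit of complex IV, COX1, stood at 11560 and 12870 CPM in Control and 11430 to 15070 CPM in factor libraries and was not called (log2 fold changes 0.14, 0.19, 0.13, 0.16 and -0.04, SE 0.12, adjusted p 0.222 to 0.79), nor was COX3. ND6, the only one on the other strand, had log2 fold changes of -0.33, -0.54, -0.44, -0.13 and -0.47 (SE 0.21, adjusted p 0.058 to 0.624). Leaving out Control replicate 1, the medians of the 13 were 0.33, 0.35, 0.34, 0.43 and 0.23, against 0.05, 0.05, 0.02, 0.02 and 0 over all tested genes. Fewer of the 13 were then called higher with each factor, and with KLF4 the share lay near that of all tested genes. A gene was called lower with OSR2 and with KLF4.

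Assembly factors build the complexes but are not part of them. Over all tested genes 24.9% to 29.2% rose and 20.5% to 25.4% fell in these comparisons, and the counts of this list and of the mitochondrial ribosome were not tested against those shares. Among the 42 tested, those that rose numbered 12, 12, 8, 17 and 13, and those that fell numbered 8, 9, 7, 6 and 6, with medians of 0.05, -0.01, -0.03, 0.11 and 0.01. UQCC3, an assembly factor of complex III, had log2 fold changes of 1.61, 1.48, 1.41, 1.74 and 2.19 (SE 0.36, adjusted p 0.000739 to 0.00981), and ECSIT, one of complex I, 1.28, 1.44, 1.52, 1.71 and 1.77 (SE 0.34 to 0.35, adjusted p 0.00186 to 0.0113). NDUFAF5, also of complex I, had -0.61, -0.55, -0.68, -0.70 and -0.78 (SE 0.11, adjusted p 0.000384 to 0.00268), and TMEM70, needed for ATP synthase, -0.64, -0.65, -0.62, -0.50 and -0.46 (SE 0.13, adjusted p 0.002 to 0.0119). Of 73 mitochondrial ribosomal protein genes, 25, 26, 21, 30 and 25 rose and 10, 12, 11, 4 and 11 fell, with medians of 0.05, 0.05, 0.00, 0.22 and 0.11. The named assembly factors were chosen after their values were seen. When Control replicate 1 was left out, the medians of the assembly factors were 0.02, -0.04, -0.09, 0.09 and 0. Those of the ribosomal genes were 0.01, -0.04, -0.02, 0.15 and 0.04. Over all tested genes in these fits they were 0.05, 0.05, 0.02, 0.02 and 0. Fewer genes of both lists were then called in either direction, as for all tested genes.

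Regulators of mitochondrial biogenesis were listed as well, and their counts were not tested against the shares of all genes, 24.9% to 29.2% higher and 20.5% to 25.4% lower. Among the 18 tested, those that rose numbered 6, 6, 6, 7 and 6, and those that fell numbered 7, 6, 5, 7 and 4. NRF1, a transcription factor that binds promoters of many respiratory chain genes, went from 14.4 and 14.9 CPM in Control to 20.5 to 31.6 CPM in factor libraries, with log2 fold changes of 0.77, 0.79, 0.81, 0.86 and 0.86 (SE 0.24, adjusted p 0.0117 to 0.021). PPRC1, a coactivator related to PGC-1, had 1.05, 0.87, 1.08, 1.27 and 1.37 (SE 0.25, adjusted p 0.00141 to 0.0155). GABPA, the DNA-binding part of NRF2 (GABP), had log2 fold changes of -0.43, -0.50, -0.37, -0.32 and -0.22 (SE 0.08, adjusted p 0.000793 to 0.0414), and PPARGC1A (PGC-1 alpha), at 3.69 and 3.58 CPM in Control and 2.14 to 3.09 CPM in factor libraries, had -0.54, -0.63, -0.36, -0.53 and -0.55 (SE 0.17, adjusted p 0.0106 to 0.107). TFAM, which packs and transcribes mitochondrial DNA, was called in no comparison with Control, with log2 fold changes of -0.18, -0.25, -0.14, -0.06 and -0.25 (SE 0.13, adjusted p 0.141 to 0.748). The median log2 fold changes of the 18 were -0.17, -0.24, -0.16, -0.03 and -0.06. In fits lacking Control replicate 1 they were -0.17, -0.22, -0.17, -0.03 and -0.06. Fewer of the 18 were then called in either direction, as for all tested genes.

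Fuel pathways upstream of the chain gave unlike counts. Over all tested genes 24.9% to 29.2% rose and 20.5% to 25.4% fell, and the counts of these pathways were not tested against those shares. Of 18 genes of the citric acid cycle and pyruvate dehydrogenase, 10, 9, 8, 9 and 8 rose and 2, 2, 2, 1 and 2 fell, with medians of 0.19, 0.18, 0.14, 0.20 and 0.14. CS, citrate synthase, went from 31.1 and 41.1 to 62.3 to 97.3 CPM, with log2 fold changes of 1.14, 1.25, 1.09, 1.23 and 1.28 (SE 0.22, adjusted p 0.000857 to 0.00317). IDH3G, a subunit of isocitrate dehydrogenase, had 1.72, 2.07, 1.89, 1.86 and 1.93 (SE 0.29, adjusted p 0.000319 to 0.00102), while SUCLA2, of succinate-CoA ligase, had -0.64, -0.64, -0.68, -0.66 and -0.66 (SE 0.13, adjusted p 0.00174 to 0.00242). Of 21 glycolysis genes, 2, 3, 4, 4 and 4 rose and 10 fell with each factor, with medians of -0.27, -0.24, -0.21, -0.27 and -0.45. Those named here are among the genes that fell and were chosen after their values were seen. LDHA, lactate dehydrogenase A, went from 752 and 744 CPM in Control to 149.8 to 202 CPM in factor libraries, with log2 fold changes of -2.14, -1.99, -2.11, -2.25 and -1.91 (SE 0.10, adjusted p 8.1e-07 to 5.48e-06), and SLC16A3, a lactate exporter, had -2.81, -2.88, -2.01, -2.57 and -2.36 (SE 0.14, adjusted p 7.3e-07 to 3.52e-05). After leaving out Control replicate 1 the medians of the citric acid cycle genes were 0.17, 0.16, 0.12, 0.18 and 0.11. Those of the glycolysis genes were -0.34, -0.32, -0.26, -0.34 and -0.45. Fewer citric acid cycle genes were then called higher, as for all tested genes, while the glycolysis genes called lower stayed nearly as many.

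The counts of the next lists were not tested against the shares of all tested genes, 24.9% to 29.2% higher and 20.5% to 25.4% lower. Among 9 genes of cytochrome c, carriers and porins, 2 rose in each comparison and 2, 1, 1, 1 and 1 fell. Their median log2 fold changes were -0.14, -0.15, -0.13, 0 and -0.10, and leaving out Control replicate 1 they were -0.14, -0.15, -0.15, -0.02 and -0.13. Fewer of the 9 were then called higher except with KLF4. CYCS, cytochrome c itself, stood at 92.7 and 95.3 CPM in Control and 75.1 to 105 CPM in factor libraries and was called lower with OSR1 only, with log2 fold changes of -0.28, -0.26, -0.17, 0.00 and 0.00 (SE 0.11, adjusted p 0.0491 to 0.993). ATPIF1, the inhibitor of ATP synthase, had log2 fold changes of 1.17, 1.46, 1.13, 0.93 and 0.99 (SE 0.22, adjusted p 0.000499 to 0.00578), and VDAC1, an outer membrane porin, had -1.31, -1.28, -0.77, -0.53 and -0.65 (SE 0.10 to 0.11, adjusted p 1.18e-05 to 0.00211). Of 5 respiratory chain genes outside the name rule, only NDUFAB1, the acyl carrier subunit of complex I, rose with each factor (log2 fold changes 0.64, 0.80, 0.77, 0.61 and 0.75, SE 0.10, adjusted p 0.000144 to 0.000767), and 1 fell with KLF4. The medians over these 5 genes were -0.13, -0.09, 0.05, -0.18 and -0.15, and 4, 4, 4, 4 and 3 of them were not called. Genes of the cytosolic ribosome, with no part in respiration, were also called higher more often than lower. Among the 79 tested, those that rose numbered 44, 46, 33, 37 and 28, and those that fell numbered 1, 2, 3, 2 and 6, with medians of 0.32, 0.38, 0.24, 0.27 and 0.11. When Control replicate 1 was left out, the medians of these 79 were 0.24, 0.29, 0.16, 0.18 and 0.04. Fewer of them were then called higher with each factor. Except with OSR2, their share lay near that of all tested genes in the same fits, or below it with KLF4.

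**Figure D5:**
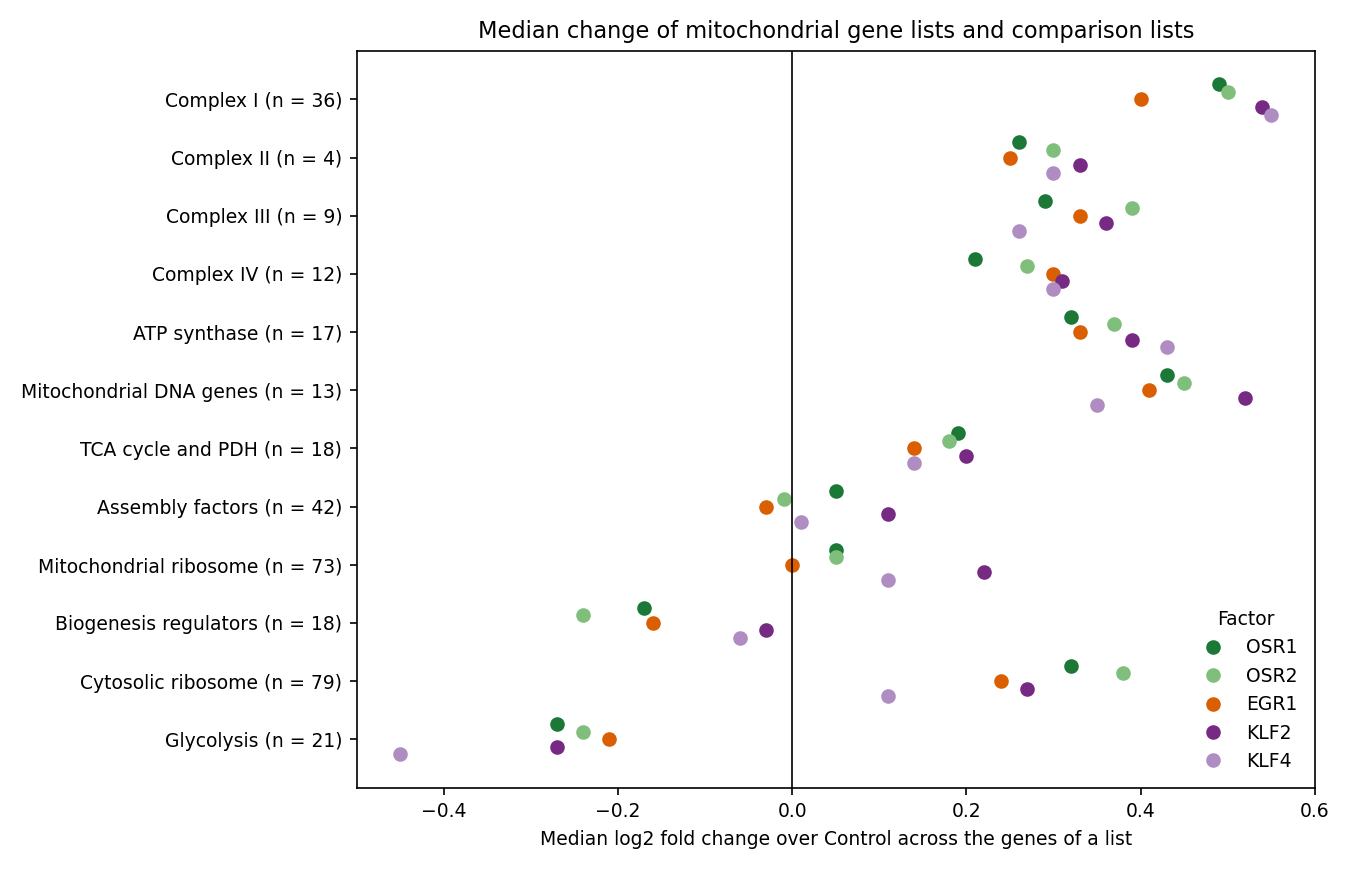
Median log2 fold change over Control across the tested genes of each list, 1 point per factor. The complexes and the genes of mitochondrial DNA lie between 0.21 and 0.55, near the cytosolic ribosome (0.11 to 0.38), assembly factors and biogenesis regulators lie around or below 0, and glycolysis lies between -0.45 and -0.21.

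Marker genes of cell types moved with some of these comparisons. All 19 cartilage markers fell with OSR1 and with OSR2, and 6, 12 and 11 of them fell with EGR1, KLF2 and KLF4, where 2, 1 and 5 rose. Of 29 skeletal muscle markers, 14, 12, 11, 6 and 5 rose and 1, 2, 4, 13 and 19 fell, with medians of 0.34, 0.34, 0.30, -0.27 and -0.54. Without Control replicate 1 the medians were 0.30, 0.25, 0.18, -0.26 and -0.50. Fewer of these markers were then called higher, as for all tested genes. The summed level of 17 limb mesenchyme markers was 8820 and 9701 CPM in Control and 13330 to 18550 CPM in factor libraries. Of them 9, 11, 9, 11 and 8 rose and 0, 1, 1, 1 and 2 fell, with medians of 0.52, 0.47, 0.28, 0.34 and 0.19. The summed level of 25 cell cycle genes was 2062 CPM in both Control libraries and 2110 to 2705 CPM in factor libraries. Here 8, 8, 15, 16 and 14 rose and 4, 6, 2, 2 and 1 fell, with medians of 0.10, 0.04, 0.24, 0.30 and 0.28. Over all tested genes 24.9% to 29.2% rose and 20.5% to 25.4% fell. The sums of macrophage markers were 42.9 and 45.5 CPM in Control and 47.5 to 59.4 CPM in factor libraries, and those of endothelial markers were 394 and 384 CPM and 326 to 428 CPM. Epidermal markers summed to 97.9 and 108 CPM in Control, 107 to 195 CPM in OSR1, OSR2, EGR1 and KLF2 and 562.5 and 481 CPM in KLF4, while red cell markers summed to 9.27 and 9.61 CPM in Control, 3.34 to 4.62 CPM in OSR1, OSR2 and EGR1, 13.5 and 14 CPM in KLF2 and 25.9 and 34 CPM in KLF4. The part of these cell types in the values of the respiratory chain genes was not tested.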

How the data were processed

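Counts per feature, 1 table for each of the 12 libraries, were used as deposited by the authors. Per the submitters' processing notes, TopHat2, SAMtools, featureCounts and DESeq2 were used with the galGal4 build, and neither their versions and settings nor the annotation is given there. Per the labels' protocols, libraries were stranded TruSeq mRNA libraries. The strand setting of the counting is not given, so overlapping genes are uncertain.

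Counts were scaled by TMM (factors 0.9521 to 1.041) and tested in edgeR 4.0.16 (R 4.3.3, limma 3.58.1) by the quasi-likelihood F test, in 1 fit of all 12 libraries with a mean per group and 6 residual degrees of freedom. Of 21350 features, 18979 passed filterByExpr (minimum count 10), and p-values were Benjamini-Hochberg adjusted over these. CPM used TMM-scaled totals and is not corrected for gene length. The SE is the log2 fold change divided by the square root of F. Total counts ran from 51233721 to 106079374, and the common biological coefficient of variation was 0.128. Figures used matplotlib 3.10.9.

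The genes, the lists and the grouping into F1 subunits were chosen with earlier results of these data known. Genes named by rule were the best known subunits, the isoforms of COX4, COX6A, COX7A, COX8 and the c subunit, the 3 called genes with the largest rise and fall per comparison and the 2 of widest range per complex, at 5 CPM or more; other named genes were chosen after their values were seen. Of the 78 names, 68 were current RefSeq symbols (GRCg7b, names only), 2 were synonyms and 8 were not matched. Alternatives were DESeq2 1.42.0, median-of-ratios factors, library totals, no filter, only the groups compared, a replicate block and leaving out each library. Counts of lists without a Control library were added after seeing the data. Genes not named in the text are given by counts and in the heatmap, except 1 that is not reported here.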

Additional observations from a re-analysis of the deposited data

How the results depend on the processing

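No call of a named gene turned its direction. Of 1090 values of called genes under the alternatives, 943 kept their side of the threshold and 147 lost the call, 39 of them without Control replicate 1. With each library left out in turn, the called genes numbered 25 to 45 with OSR1 (42 with all libraries), 31 to 48 with OSR2 (47), 26 to 43 with EGR1 (41), 32 to 47 with KLF2 (47) and 33 to 45 with KLF4 (47). They numbered 2 to 21 for the KLF factors against the OSR factors (6), and 0 for OSR1 against OSR2 and for KLF2 against KLF4. For the KLF factors against the OSR factors, library totals gave 3 and DESeq2 gave 10, and for KLF2 against KLF4 a fit of those groups alone gave 1; the cause was not tested. Deviations between replicates correlated at -0.29 to 0.22 over 15 pairs of groups, with 4 pairs above 0.1 and 5 below -0.1. Whether libraries of the same replicate number shared an infection or embryo pool was not tested, and these correlations cannot decide it. With the replicate block the counts were 42, 46, 39, 47, 46, 5, 0 and 0 in the same order. Fits of only the groups compared gave 30, 52, 44, 43, 54, 6, 0 and 1. In these fits 20.8%, 28.7%, 23.8%, 24.8% and 31.9% of all tested genes were called higher than Control. With library totals, EGR1 moved from 4724 higher and 3885 lower over all genes to 3949 and 4704, and from 40 and 1 to 34 and 2 of the respiratory chain genes.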
